A study of Homo sapiens with 24 samples.

Results

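HMMR, FAM83D, 7 further genes of the mitotic spindle, its midzone and the cleavage furrow (TPX2, ASPM, NUSAP1, DLGAP5, CKAP2, PRC1 and ANLN) and ARL6IP1, a gene of the endoplasmic reticulum, were followed through every RNA-Seq library of a study of KIF20A in triple-negative breast cancer cells. The genes were taken by symbol, and all 10 were listed in each of the 4 expression tables, which hold 19283, 18248, 60651 and 23792 rows. The 24 libraries formed 8 groups of 3. Breast cancer stem-like cells (BCSCs), sorted by FACS as CD24-CD44+ and ALDH+, were set against non-BCSCs lacking both phenotypes in Hs578T and in HCC70, established triple-negative lines that were otherwise untreated. In MDA-MB-231, another established line of this type, cells that carried the KIF20A guide sg1 were set against sgCtrl cells, both lentivirally transduced and drug-selected, and cells labelled KIF20A OE (overexpression) against empty vector (EV) cells. The sg1 libraries are titled SG1 to SG3 and were read as replicates of guide sg1, since their table columns are numbered within SG1. Each experiment was taken as a batch of its own, so a cell line or experiment and its batch cannot be told apart. The labels do not say whether the 3 libraries of a group came from separate cultures. The study's methods call them biological triplicates without saying what was repeated, so p-values measure the spread between these libraries, whatever its source. The 3 libraries labelled KIF20A OE were near 0 for markers that the EV libraries expressed highly, with values given ahead of their results.

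During mitosis, microtubules are nucleated around chromosomes and at centrosomes, bundled into a bipolar spindle, and rebuilt after chromosome separation into a midzone of overlapping antiparallel microtubules that directs the cleavage furrow. HMMR, also called RHAMM, is a hyaluronan-binding protein that works inside dividing cells as a spindle pole protein and partner of TPX2, and FAM83D binds HMMR and brings casein kinase to the spindle. KIF20A, the kinesin targeted in the study, acts at the midzone. Transcripts of such genes accumulate late in the cell cycle, so in bulk RNA a larger share of dividing cells and more RNA per dividing cell cannot be told apart.

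Many late cell cycle genes carry a cell cycle genes homology region (CHR, TTTGAA or the related TTTAAA) near the transcription start, often with CCAAT boxes upstream. RefSeq promoter windows (GRCh38.p14) were held for 8 of the 10 genes, all but FAM83D and TPX2. The stretches below, of 30 bases each on the strand of the gene, are from the 5 genes with TTTGAA or TTTAAA within 100 bases before the start. KIF20A is set beside them. DLGAP5, CKAP2 and ARL6IP1 held neither form there and are not shown. Capitals mark TTTGAA, its reverse complement, TTTAAA or CCAAT on either strand, and positions are counted back from -1, the base before the RefSeq start.
HMMR: gtggggagaTTTGAATTTGAAaccggtagg
PRC1: cccgtggcgcggTTTGAAattttgcggggc
ANLN: gcgctgaaaTTCAAATTTGAAcggctgcag
ASPM: tcctcATTGGtggaggcggcaagTTTAAAc
NUSAP1: cggcattcttcaTTTAAActgtctataaat
KIF20A: cgcagcgcgtaaTTTAAAatattgtatctg
The HMMR stretch, chr5:163460595-163460624 on the plus strand, holds TTTGAA at -28 and again, directly after it, at -22. PRC1 (chr15:90994538-90994567, minus strand) and ANLN (chr7:36389827-36389856, plus strand) each hold TTTGAA from -20 to -15, and in ANLN the reverse complement comes directly before it at -26. TTTAAA lies at -7 in ASPM (chr1:197146670-197146699, minus strand), at -40 in NUSAP1 (chr15:41332829-41332858, plus strand) and at -41 in KIF20A (chr5:138179059-138179088, plus strand).

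In the 100 bases before the start, either CHR form was present in 5 of the 8 genes and in 8.24% of all 35116 promoter windows. TTTGAA alone was present in 3 of the 8 and in 4.61% of all windows. CCAAT on either strand was present in 6 of the 8, all but CKAP2 and ANLN, and in 18.1% of all windows. DLGAP5, CKAP2 and ARL6IP1 held neither CHR form in this stretch, although DLGAP5 held TTTGAA at -138 and, counted from the start, at position 4. In GENCODE 44 these 100 bases lie wholly within exons for HMMR, NUSAP1 and PRC1, whose gene models begin further upstream, and hold 16 to 41 exon bases for the other 5, so "before the start" refers to the RefSeq start alone. These are matches of letters and not measured sites.

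In Hs578T, all 10 genes were higher in BCSCs than in non-BCSCs (adjusted p under 0.05, limma on log2(TPM + 1), with TPM the transcripts of a gene scaled for its length and the library total), where 2.9% of the 13324 genes tested were called higher. In HCC70, 9 of the 10 were called higher, against 2.28% of 13218 genes, and CKAP2 missed the threshold. The 10 genes were chosen with earlier results of these data known, so these counts describe them and test no enrichment. HMMR is also among the genes that the paper picked from its RNA-Seq comparison of these fractions and found higher in BCSCs of both lines by RT-qPCR. The differences were small in fold: the ratio of mean TPM lay between 1.16 for ANLN and 1.39 for FAM83D in Hs578T, and between 1.31 for CKAP2 and 1.59 for FAM83D in HCC70. For each of the 10 genes, in both lines, the lowest BCSC value was above the highest non-BCSC value, which held for 12.0% of all genes tested in Hs578T and 20.9% in HCC70. The median log2 fold change of the 10 was 0.35 in Hs578T and 0.53 in HCC70, beside -0.01 and 0.02 for all genes tested. In Hs578T, 40.5% of all calls were higher, or 52.0% after rescaling by the median of ratios, and in HCC70 80.5%, or 71.7% after that rescaling, 61.7% with edgeR and 54.4% with DESeq2.

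**Figure D1:**
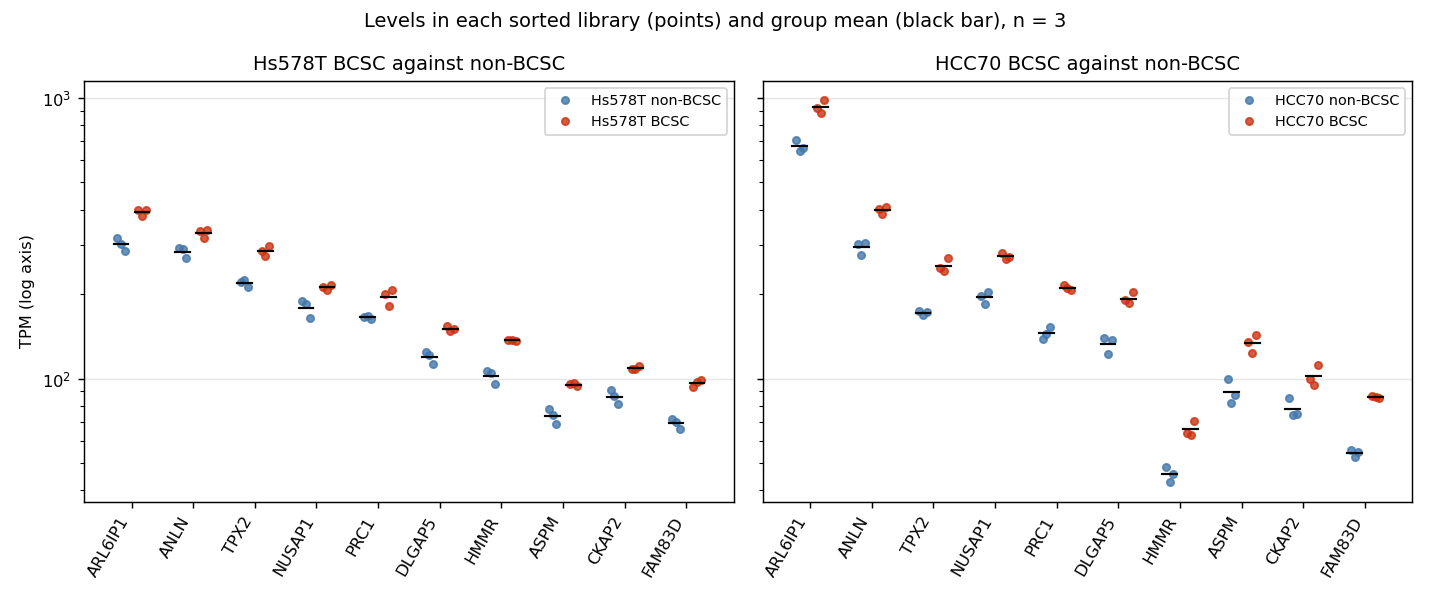
Expression in TPM (log axis) of the 10 genes in each sorted library of Hs578T (left) and HCC70 (right), with non-BCSCs in blue, BCSCs in red and the mean of 3 libraries as a black bar. The 3 red points lie above the 3 blue points for each gene in both lines.

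HMMR was listed at 106, 105 and 95.3 TPM in the 3 Hs578T non-BCSC libraries and at 137, 137 and 136 TPM in the 3 BCSC libraries. The BCSC libraries were nearly alike and all above the non-BCSC range, with a log2 fold change of 0.42 (standard error [SE] 0.05, adjusted p = 0.0039). In HCC70 it was listed at 48.3, 42.7 and 45.6 TPM in non-BCSCs and at 64.1, 63.1 and 70.4 TPM in BCSCs. The log2 fold change there was 0.52 (SE 0.07, adjusted p = 0.012), and without HCC70 BCSC replicate 1 the adjusted p was 0.063. HMMR lies on chromosome 5 of GRCh38 (GENCODE 44) from 163460203 to 163491941 on the plus strand, and none of its 3932 exon bases are shared with another gene on that strand.

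FAM83D had the largest log2 fold change of the 10 genes in both lines. It was listed at 72.0, 69.8 and 66.3 TPM in Hs578T non-BCSCs and at 93.4, 97.0 and 99.0 TPM in BCSCs, a log2 fold change of 0.47 (SE 0.05, adjusted p = 0.0020). HCC70 non-BCSCs had 55.8, 52.4 and 54.6 TPM, and HCC70 BCSCs had 86.8, 86.1 and 85.6 TPM. The HCC70 groups lay far apart for their spread, and the log2 fold change was 0.66 (SE 0.05, adjusted p = 0.0019). FAM83D (chromosome 20, 38926312 to 38953106, plus strand) shares no exon base with another gene, and it passed the threshold under each of the 13 alternative settings in both lines.

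TPX2, which activates Aurora A kinase and nucleates microtubules, also passed under each of the 13 alternatives in both lines. Its values were 221, 224 and 213 TPM in Hs578T non-BCSCs and 284, 273 and 296 TPM in BCSCs (log2 fold change 0.37, SE 0.05, adjusted p = 0.0046). In HCC70 they were 174, 169 and 172 TPM in non-BCSCs and 247, 242 and 268 TPM in BCSCs (log2 fold change 0.55, SE 0.06, adjusted p = 0.0059). TPX2 lies on chromosome 20 from 31739271 to 31801805, on the same chromosome and strand as FAM83D.

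The other spindle genes moved by similar amounts. ASPM, a spindle pole protein that holds microtubule minus ends, rose from 73.6 ± 4.34 to 95.2 ± 1.35 TPM in Hs578T and from 89.7 ± 8.86 to 134 ± 9.65 TPM in HCC70 (mean ± SD, n = 3). DLGAP5, which stabilizes kinetochore fibers, rose from 119 ± 5.75 to 150 ± 3.43 TPM and from 133 ± 9.35 to 193 ± 8.82 TPM. The log2 fold changes in Hs578T and HCC70 were 0.37 and 0.57 for ASPM and 0.33 and 0.53 for DLGAP5.

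CKAP2, a microtubule stabilizer, rose from 86.2 ± 5.05 to 109 ± 1.53 TPM in Hs578T (log2 fold change 0.34, SE 0.05, adjusted p = 0.0095). In HCC70 its values were 85.1, 74.4 and 74.8 TPM in non-BCSCs and 99.7, 94.6 and 112 TPM in BCSCs, with a log2 fold change of 0.38 (SE 0.08) and an adjusted p of 0.052. The HCC70 groups did not overlap, but their spread was the widest relative to the difference among the 10 genes. NUSAP1, which bundles microtubules near chromosomes, was at the edge in Hs578T: 179 ± 13.1 against 211 ± 4.61 TPM, a log2 fold change of 0.24 (SE 0.06, adjusted p = 0.04995), not called when any of the 6 libraries was left out. In HCC70 it rose from 195 ± 9.91 to 273 ± 6.73 TPM (log2 fold change 0.48, adjusted p = 0.0086).

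Of the midzone and cleavage genes, PRC1, which crosslinks antiparallel microtubules, was listed at 165, 166 and 163 TPM in Hs578T non-BCSCs and 199, 181 and 206 TPM in BCSCs (log2 fold change 0.24, SE 0.05, adjusted p = 0.040). In HCC70 it was listed at 138, 144 and 153 TPM in non-BCSCs and 216, 209 and 206 TPM in BCSCs (log2 fold change 0.54, SE 0.06, adjusted p = 0.0060). ANLN, the anillin scaffold of the contractile ring, had the smallest Hs578T difference, 283 ± 12.7 against 329 ± 11.6 TPM (log2 fold change 0.22, adjusted p = 0.041), and rose from 295 ± 15.7 to 398 ± 11.2 TPM in HCC70 (log2 fold change 0.44, adjusted p = 0.014). In Hs578T, PRC1, ANLN and NUSAP1 fell out of the calls in 5, 5 and 6 of the 6 leave-one-out fits. ARL6IP1, which shapes endoplasmic reticulum membrane and is the only one of the 10 genes whose known product is not a spindle or cleavage protein, rose from 300.5 ± 16.3 to 393 ± 10.3 TPM (log2 fold change 0.39, adjusted p = 0.0056) and from 671 ± 32.1 to 929 ± 49.4 TPM (log2 fold change 0.47, adjusted p = 0.016).

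**Figure D2:**
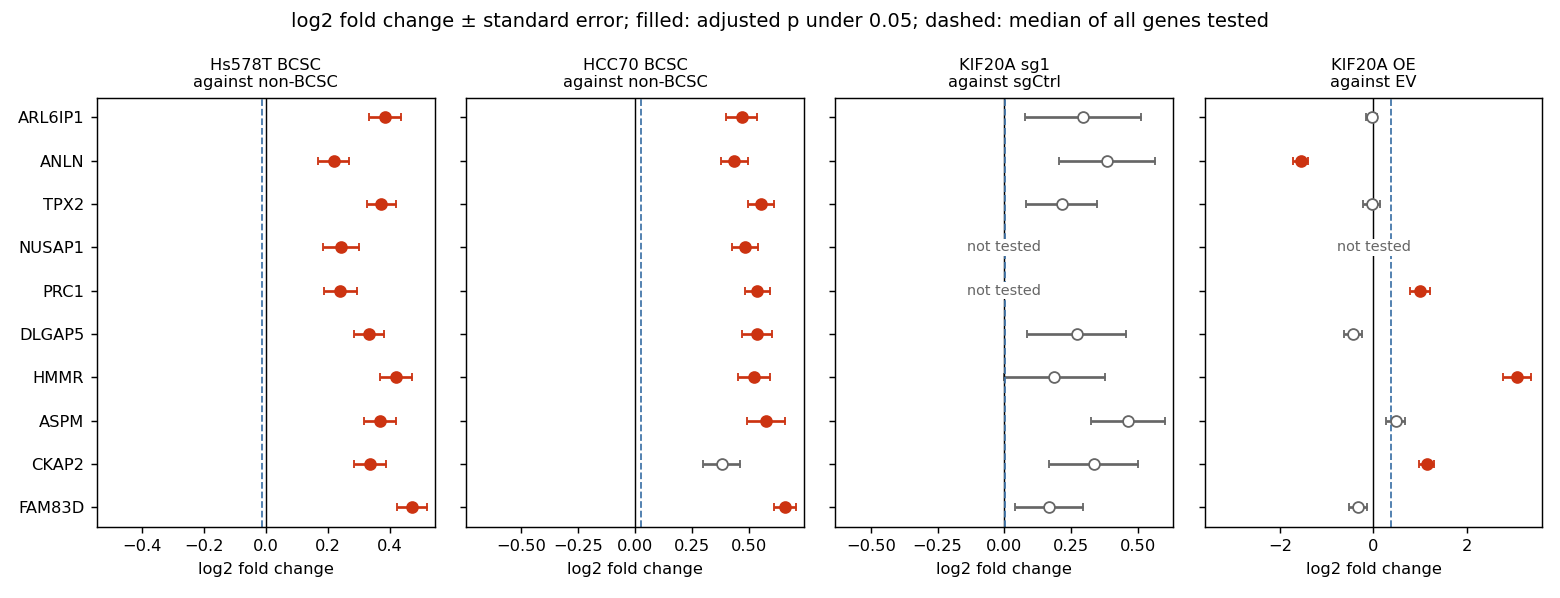
Log2 fold change (point) and SE (bar) of each gene in the 4 comparisons, on axes of different width, with filled red points for an adjusted p under 0.05, open grey points otherwise, and the median of all genes tested as a dashed line. The points are filled for all 10 genes in Hs578T, 9 in HCC70, none after sg1, and 4 of the 9 genes tested in the overexpression experiment, where HMMR stands at 3.07 and ANLN at -1.56. PRC1, filled there, entered that test only through the KIF20A OE group.

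The HCC70 calls rested on a thin margin. Without HCC70 BCSC replicate 1 only FAM83D and TPX2 were called, while 32 genes in all were called in place of 374, and leaving out each of the other 5 HCC70 libraries left 6 to 10 of the 10 genes called. In Hs578T, 7 to 9 genes were called when a library was left out, in each fit including HMMR, FAM83D, TPX2, ASPM, DLGAP5, CKAP2 and ARL6IP1.

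The fraction effect was numerically larger in HCC70 than in Hs578T for each of the 10 genes, as it was for 58.0% of all 11668 genes tested with the interaction of fraction and cell line. At an unadjusted p under 0.05 the effect was larger for 6 of the 10, beside 18.4% of all genes. Only PRC1 passed after adjustment, with a log2 fold change larger by 0.30 in HCC70 (SE 0.08, adjusted p = 0.043), where 5.62% of all genes were called in this direction. KIF20A, with log2 fold changes of 0.45 and 0.80, differed by 0.35 (SE 0.08, adjusted p = 0.029). The difference was 0.19 for FAM83D (SE 0.06, adjusted p = 0.093) and 0.10 for HMMR (SE 0.09, adjusted p = 0.46). Rescaling by the median of ratios moved the share of calls larger in HCC70 from 79.0% to 55.6%, took the PRC1 difference to 0.24 (adjusted p = 0.069) and left the difference of CKAP2 at -0.0085. The PRC1 call was lost in 10 of the 12 leave-one-out fits, and without Hs578T non-BCSC replicate 3 NUSAP1 was called in its place (adjusted p = 0.040).

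Related lists, none of which holds any of the 10 genes, moved with them in whole or in part in the sorted cells. Of all genes tested, 2.9% were called higher in Hs578T and 2.28% in HCC70. Of 18 G2/M markers, 15 were called higher in each line and none fell. Their median log2 fold changes were 0.32 in Hs578T and 0.59 in HCC70. CCNB1, the mitotic cyclin, led in both, from 236 to 328 TPM and from 100.4 to 173 TPM. Of 36 further spindle assembly genes, 11 were called higher in Hs578T and 15 in HCC70, and none was called lower. PLK1 (log2 fold change 0.41 and 0.81) and AURKA (0.41 and 0.77) led in both. Fold changes were above 0 for 30 of the 36 in Hs578T and 31 in HCC70, with medians of 0.12 and 0.23. Of the list of midzone and cytokinesis genes, 11 of 24 tested were called higher in Hs578T and 13 of 23 in HCC70, among them KIF20A, CEP55 in Hs578T (log2 fold change 0.40) and CDCA8 in HCC70 (0.66). Fold changes in this list were above 0 for 16 genes in Hs578T and 18 in HCC70, with medians of 0.18 and 0.39.

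None of the 26 S phase markers was called in either line with limma, where 4 and 1 were higher and 1 and 3 lower at an unadjusted p under 0.05. Their median log2 fold changes were 0.05 and 0.01. Of 19 genes that shape the endoplasmic reticulum (16 tested in HCC70), set beside ARL6IP1, only REEP4, a membrane protein that clears the endoplasmic reticulum from mitotic chromosomes, was called higher in each line (log2 fold change 0.32 and 0.37). The sorting marker list had ALDH1A3 called higher in Hs578T (log2 fold change 1.29) and none of 4 genes called in HCC70.

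The cell lines kept their own markers. The 9 mesenchymal markers summed to 12020 to 12790 TPM in Hs578T, and the 8 of them listed in HCC70 to 2557 to 2758 TPM, while the epithelial markers summed to 324 to 427 TPM in Hs578T and 9231 to 10440 TPM in HCC70. Between fractions, 1 mesenchymal gene was called higher and 2 lower in Hs578T, with 1 epithelial gene higher (KRT18, log2 fold change 0.28), and none of either list was called in HCC70. Their part in the values above was not tested.

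Levels per length, as TPM gives them, had a like order in both lines. In Hs578T non-BCSCs ARL6IP1 and ANLN came first with overlapping ranges, then TPX2, NUSAP1 and PRC1 (these last 2 overlapping), DLGAP5, HMMR, CKAP2, and ASPM and FAM83D with overlapping ranges. In HCC70 non-BCSCs ARL6IP1 was first, followed by ANLN, NUSAP1, TPX2, PRC1 and DLGAP5 (overlapping), ASPM and CKAP2 (overlapping), FAM83D, and HMMR last. HMMR thus stood at the seventh place in Hs578T (102 ± 6.00 TPM) and at the tenth in HCC70 (45.5 ± 2.85 TPM), and ARL6IP1 at 300.5 TPM in the one and 671 TPM in the other. The tables of the lines were normalized separately, so these levels are given side by side without a test.

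Across the 12 sorted libraries, after the mean of each line was subtracted from log2(TPM + 1), the 5 genes most like HMMR among 8017 compared were ARL6IP1 (Pearson's r = 0.993), CENPE (0.991), ECT2 (0.99), DLGAP5 (0.989) and CCNB2 (0.987). Those most like FAM83D were NEK2 (0.993), CKS2 (0.992), KNSTRN (0.99), TPX2 (0.983) and CCNB1 (0.983). These values are descriptions over libraries that share a line, a batch and 2 fractions, and the difference between fractions is part of them. Once the mean of each group was subtracted, r with HMMR was between 0.882 and 0.967 for its 5 genes, whereas r with FAM83D was between 0.341 and 0.753. Over all 45 pairs of the 10 genes, r before that step ran from 0.83 to 0.993 with a median of 0.965.

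The genes also deviated together between libraries of the same group. Hs578T non-BCSC replicate 3 had the lowest value of its group for all 10 genes, and sgCtrl replicate 1 and KIF20A sg1 replicate 3 for all 8 genes with a mean of at least 5. EV replicate 2 had the highest value for all 8, by a mean of 0.36 on the log2 scale above its group's mean. The 18 G2/M markers deviated by 0.34 in the same library and by -0.24 in KIF20A sg1 replicate 3, where the 8 genes deviated by -0.24. The 26 S phase markers deviated by 0.33 in EV replicate 2 and by 0.004 in KIF20A sg1 replicate 3. In sorted libraries these shared deviations did not exceed 0.08, below the median fold change between fractions, while in sgCtrl and KIF20A sg1 they reached 0.25, beside a median fold change of 0.28 after depletion.

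**Figure D3:**
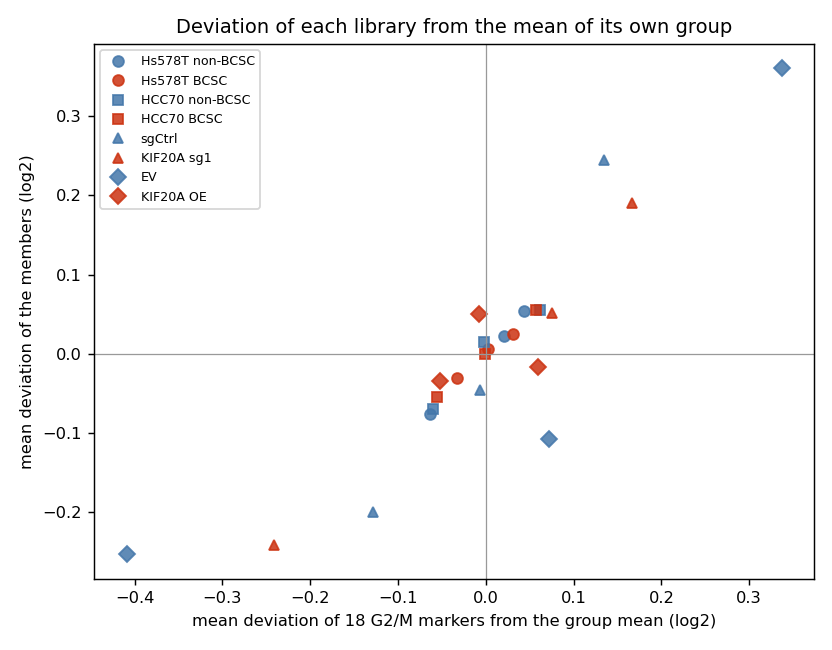
Mean deviation of the genes from the mean of their own group (vertical axis, log2) against that of 18 G2/M markers (horizontal axis, log2) in each of the 24 libraries. Libraries of the sorted groups lie within 0.08 of the centre on either axis. On the vertical axis sgCtrl and KIF20A sg1 libraries spread from -0.24 to 0.25, and EV libraries spread furthest, from -0.25 to 0.36. On the horizontal axis EV libraries run from -0.41 to 0.34.

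In the MDA-MB-231 tables, NUSAP1 and PRC1 were close to 0. NUSAP1 was listed at 0.361 to 1.17 in the depletion table, whose values the authors named CPM (read counts scaled to the library total, not for length), and at 0.0967 to 0.353 CPM in the overexpression table, from 18 to 49 and 2 to 6 recovered reads. PRC1 was listed at 0.622 to 0.988 and 0.476 to 3.13 CPM. In the sorted libraries NUSAP1 was never under 164 TPM and PRC1 never under 138 TPM. In GENCODE 44, 86.8% of the 3608 exon bases of NUSAP1 (chromosome 15, 41320794 to 41381050, plus strand) and 57.6% of the 5523 exon bases of PRC1 (chromosome 15, 90966040 to 90995629, minus strand) are shared with other genes on the same strand, beside 15.3% for ARL6IP1 and none for the other 7. The unnamed gene that shares 3181 bases with PRC1 was itself listed at 4.27 to 9.72 in the depletion table. PRC1-AS1 shares a further 1892 bases on the opposite strand. The unnamed gene that shares 2938 bases with NUSAP1 was listed at 0 in every sgCtrl and KIF20A sg1 library. The gene that shares 546 bases with ARL6IP1 was also at 0 there, but at 57.6 to 172 CPM in the overexpression table. The annotation and the strand setting of the counting were not given in the sources used here. Values of NUSAP1 and PRC1 in MDA-MB-231 are therefore uncertain, and the part of the overlaps in them was not tested.

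The RNA of KIF20A itself stood at 153, 173 and 156 CPM in sgCtrl and 122, 145 and 91.1 CPM in KIF20A sg1. The groups did not overlap, but the log2 fold change of -0.45 did not pass (SE 0.16, adjusted p = 0.69). After KIF20A depletion none of the 8 genes tested was called, nor was any of the 12852 genes tested (0.0%) with limma, while 899 (7.0%) had an unadjusted p under 0.05 and DESeq2 called 11. All 8 had a log2 fold change above 0, as did 50.4% of all genes, with a median of 0.28 beside 0.0023. At an unadjusted p under 0.05, 1 of the 8 was higher, beside 2.28% of all genes.

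That gene was ASPM, listed at 223, 238 and 238 CPM in sgCtrl and at 304, 388 and 284 CPM in sg1. Its groups did not overlap, as for 5.73% of all genes in this direction, and its log2 fold change was 0.47 (SE 0.14, adjusted p = 0.69). HMMR was listed at 17.6, 17.7 and 26.7 CPM in sgCtrl and at 26.9, 24.2 and 19.4 CPM in sg1, and FAM83D at 117, 134 and 128 CPM and at 143, 160 and 125 CPM. Both pairs of groups overlapped, with log2 fold changes of 0.19 (SE 0.19, adjusted p = 0.83) and 0.17 (SE 0.13, adjusted p = 0.77).

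ANLN was at 751 ± 142 and 981.5 ± 176 CPM, CKAP2 at 172 ± 34.2 and 217 ± 36.3 CPM, and ARL6IP1 at 304 ± 90.8 and 369 ± 79.4 CPM in sgCtrl and sg1. TPX2 was at 543 ± 41.3 and 631 ± 52.7 CPM, and DLGAP5 at 218 ± 53.7 and 261 ± 47.5 CPM. The groups overlapped for each of these 5. None of the 8 passed under any of the 14 alternatives, in which all fold changes stayed above 0, and without KIF20A sg1 replicate 3 or without sgCtrl replicate 3 the median rose to 0.44 or 0.47, and without sgCtrl replicate 1 it was 0.15. Without sgCtrl replicate 3, 144 genes were called, none of them among the 8. Of the lists, 0 of 35 spindle assembly genes, 0 of 24 midzone and cytokinesis genes, 0 of 18 G2/M markers and 0 of 26 S phase markers were called with limma. At an unadjusted p under 0.05, 5, 4, 3 and 0 of these were higher and 0, 1, 0 and 4 lower.

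**Figure D4:**
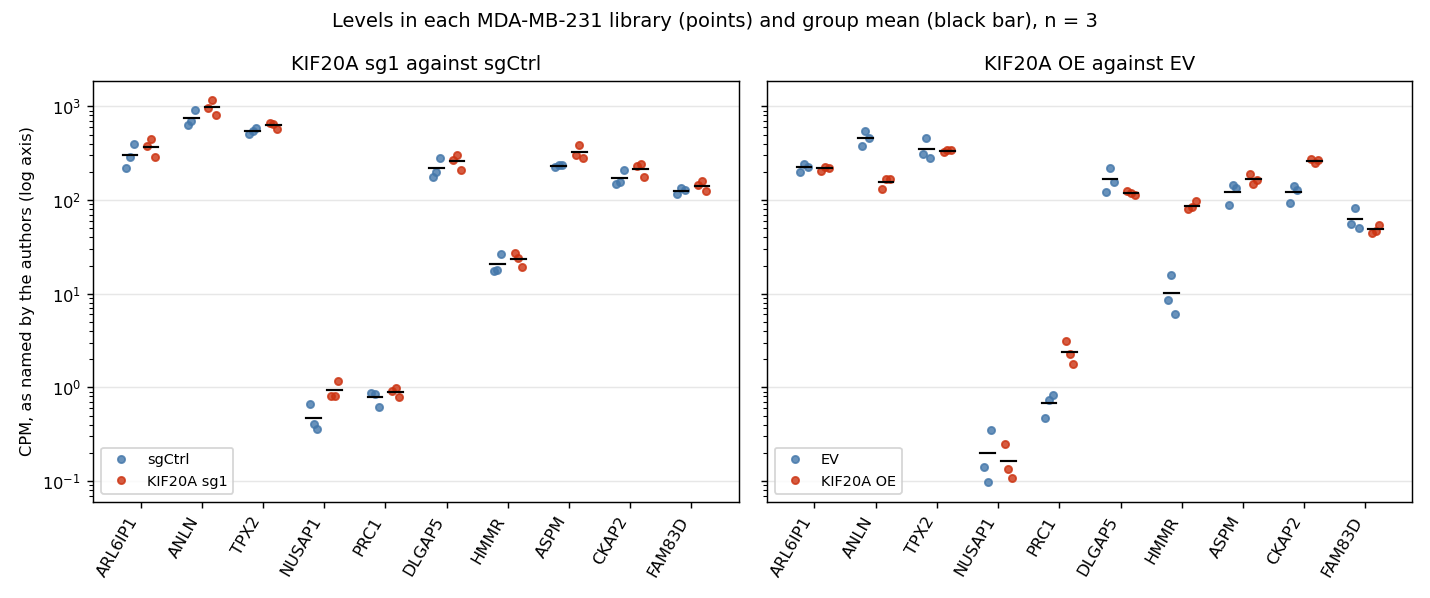
Values named CPM by the authors (log axis) of the 10 genes in each MDA-MB-231 library, with sgCtrl or EV in blue, KIF20A sg1 or KIF20A OE in red and the mean of 3 libraries as a black bar. NUSAP1 and PRC1 lie near 1 or below it in all groups but KIF20A OE, where PRC1 is at 1.77 to 3.13, and HMMR is at 6.06 to 15.8 in EV and 80.5 to 97.3 in KIF20A OE.

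The 3 libraries labelled KIF20A OE stood apart from the line they are labelled with. Of 9 mesenchymal markers 8 were called lower, with NT5E at 1239 CPM in EV and 0.275 in KIF20A OE, AXL at 962 and 0.771, and CD44 at 642 and 0.557. These named genes averaged under 1 CPM in KIF20A OE, so they entered the test only through the EV group. SPARC was called higher, from 17.1 CPM in EV to 56.7 CPM in KIF20A OE. The 9 mesenchymal markers summed to 7614 to 8196 CPM in EV and 457 to 914.5 CPM in KIF20A OE. Of 8 genes typical of HEK293 cells, an embryonic kidney line of the kind used to package lentivirus, 7 were called higher and PAX8 lower. IRS4 was listed at 0 in EV and 1571 CPM in KIF20A OE, and PAX8 at 19.3 and 0.420 CPM. The 8 summed to 15.4 to 26.3 against 1476 to 2006 CPM. The 7 were under 1 CPM in every EV library. They entered the test only through the KIF20A OE group, so their levels are given as a description. Over all genes tested, 46.2% were called higher and 23.4% lower. Of the epithelial markers 2 were called higher and 5 lower, and of the sorting markers 1 and 2. Among the epithelial calls, CDH1 was under 1 CPM in every EV library and KRT19 in every KIF20A OE library. All 3 libraries of the group share this, so no value without them can be given, and its part in the results below was not tested. KIF20A itself was at 101, 143 and 124 CPM in EV and at 1348, 269 and 896 CPM in KIF20A OE-labelled libraries (log2 fold change 2.49, SE 0.51, adjusted p = 0.0025).

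In this comparison 69.7% of the 15265 genes tested were called, 46.2% higher and 23.4% lower, the background for the counts among the 9 genes tested here. HMMR and CKAP2 were called higher and ANLN lower. PRC1 was also called higher, but its EV mean of 0.675 CPM was under the minimum of 1, so it entered the test only through the group where it was high. Rescaling by the median of ratios moved the share of calls that were higher from 66.3% to 50.6%, and the median over all genes from 0.37 to 0.03 on the log2 scale. Under that rescaling, edgeR and DESeq2 alike, FAM83D, DLGAP5 and ARL6IP1 joined ANLN among the genes called lower. HMMR and CKAP2 stayed called higher beside these 4, and so did PRC1, with the same limit on how it entered the test.

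HMMR had the largest log2 fold change of the 10 genes in any of the 4 comparisons. It was listed at 8.62, 15.8 and 6.06 CPM in EV and at 80.5, 83.8 and 97.3 CPM in the 3 KIF20A OE-labelled libraries. The groups were far apart, and the log2 fold change was 3.07 (SE 0.29, adjusted p = 3.4e-05), between 2.72 and 3.42 over 14 alternatives. ANLN went the other way, from 380, 551 and 462 CPM to 131, 167 and 170 CPM, a log2 fold change of -1.56 (SE 0.17, adjusted p = 6.5e-05), between -1.93 and -1.43 over the alternatives. CKAP2 rose from 121 ± 23.9 to 263 ± 11.4 CPM (log2 fold change 1.14, SE 0.16, adjusted p = 0.00028).

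PRC1, at 0.476, 0.725 and 0.823 CPM in EV and 3.13, 2.25 and 1.77 CPM in the 3 KIF20A OE-labelled libraries, had a log2 fold change of 1.00 (SE 0.21) from 10 to 50 recovered reads a library, which is given as a description because of how it passed the minimum. With a minimum mean of 10 it was not tested, and 2 of 8 genes were called higher. Summed with the overlapping gene, it was listed at 5.67 to 9.00 and 30.4 to 39.2 CPM (log2 fold change 2.02, adjusted p = 5.3e-05). ARL6IP1 was at 223 ± 23.1 and 217 ± 13.3 CPM (log2 fold change -0.03, adjusted p = 0.81), but summed with the gene that shares 546 of its 3558 exon bases it was at 275 to 327 and 370 to 394 CPM and called higher (log2 fold change 0.38, adjusted p = 0.014). The gene summed with it was at 57.6 to 82.3 CPM in EV and 158 to 172 CPM in KIF20A OE, and these sums were formed after the values had been seen.

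FAM83D was listed at 55.3, 81.4 and 50.5 CPM in EV and at 45.0, 46.3 and 54.6 CPM in the 3 KIF20A OE-labelled libraries. The groups overlapped (log2 fold change -0.33, SE 0.19, adjusted p = 0.16), and with edgeR the value was -0.71 (adjusted p = 0.016). TPX2, at 310, 460 and 282 CPM and at 324, 340 and 338 CPM, did not pass (log2 fold change -0.04, adjusted p = 0.87), and without EV replicate 2 its log2 fold change was 0.18. DLGAP5 (167 ± 50.7 and 119 ± 6.32 CPM, log2 fold change -0.44, adjusted p = 0.082) and ASPM (123 ± 30.6 and 168 ± 21.4 CPM, log2 fold change 0.47, adjusted p = 0.061) did not pass either. Without EV replicate 1 DLGAP5 was called lower, and without EV replicate 2 ASPM was called higher.

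Beside the 46.2% of all genes called higher and 23.4% lower, 16 spindle assembly genes were called higher and 5 lower of 36, 8 higher and 8 lower of 24 midzone and cytokinesis genes, 8 higher and none lower of 18 G2/M markers, 22 higher and none lower of 26 S phase markers, and 4 higher and 9 lower of 19 genes that shape the endoplasmic reticulum. MYH10 (log2 fold change 3.52) and MYH9 (-1.82), both heavy chains of the myosin that constricts the contractile ring with ANLN, led the midzone list in opposite directions, and CDT1, a replication licensing factor, led the S phase list (2.50).

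Set against TPX2 in the same library and per exon length, FAM83D varied less than HMMR. FAM83D relative to TPX2 was lower in EV than in the sorted, sgCtrl and sg1 libraries, and lowest in those labelled KIF20A OE. The median over 3 libraries of the FAM83D level as a percentage of TPX2 was 31.2 and 33.5 in Hs578T non-BCSCs and BCSCs, 31.7 and 35.2 in HCC70, 34.0 and 32.0 in sgCtrl and sg1, 26.0 in EV and 20.3 in KIF20A OE-labelled libraries. For HMMR it was 46.9 and 48.4 in Hs578T, 26.5 and 26.1 in HCC70, 3.22 and 3.40 in sgCtrl and sg1, 2.55 in EV, and 22.8 in KIF20A OE-labelled libraries. The 9 sgCtrl, sg1 and EV libraries ranged from 1.97% to 4.20%, and the 15 others from 22.6% to 50.4%. ASPM fell from 33.1% and 51.0% in the non-BCSCs of Hs578T and HCC70 to 13.2% in sgCtrl and 9.54% in EV, a lesser step than that of HMMR. Lengths were those of the authors for TPM and of GENCODE 44 exons for the MDA-MB-231 tables, and the tables were normalized separately, so these ratios are descriptions.

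**Figure D5:**
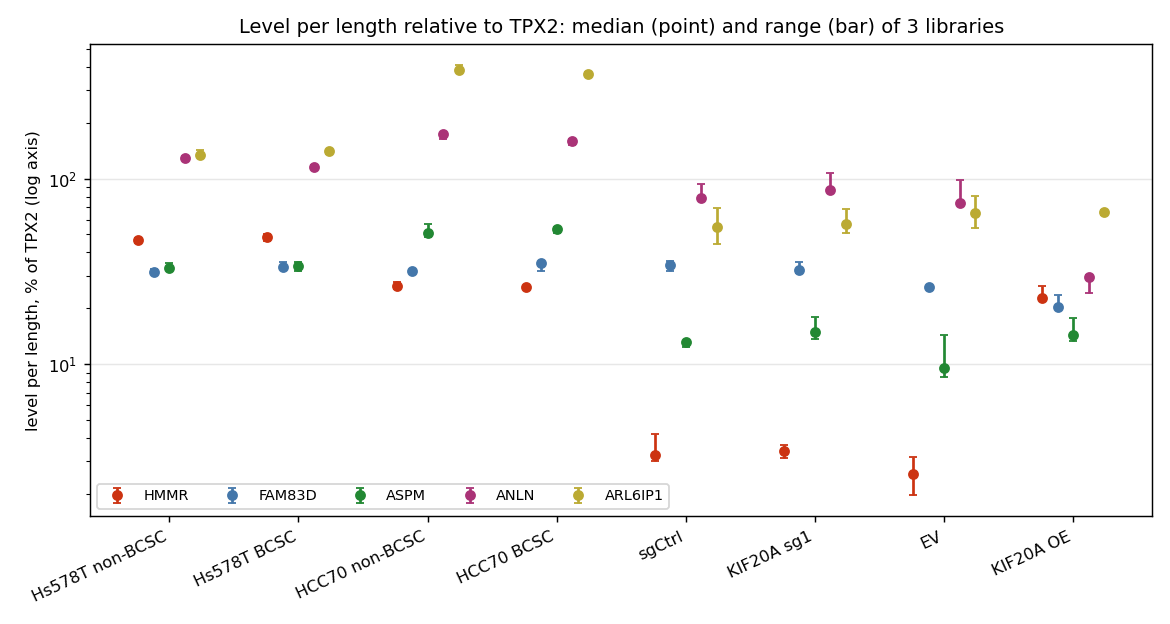
Level per length of 5 genes as a percentage of TPX2 in the same library (log axis) for the 8 groups, with the median of 3 libraries as a point and their range as a bar. FAM83D stays between 19.9% and 36.1% throughout, whereas HMMR lies between 25.3% and 50.4% in the sorted lines, between 1.97% and 4.20% in sgCtrl, KIF20A sg1 and EV, and between 22.6% and 26.4% in KIF20A OE.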

How the data were processed

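RNA-Seq libraries were made by poly-A selection with a stranded kit and sequenced in pairs. Per the labels and the submitters' processing notes, reads were processed with HISAT2 2.0.5 and featureCounts 1.5.0-p3 on GRCh38. The strand setting was not given in the sources used here. Nor was the annotation, apart from the words igenomes known genes in the names of the Hs578T and HCC70 data. The authors deposited TPM for Hs578T and HCC70, CPM for the overexpression experiment, and, for the depletion experiment, a signal they named CPM whose library totals ran from 977394 to 1028621. The tables hold no fold changes or p-values that were used.

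Each comparison was fitted alone with limma 3.58.1 (trend, two-sided, Benjamini-Hochberg adjustment over all genes tested) on log2(value + 1) for genes with a mean of at least 1, so fold changes of low genes are understated. The difference between lines was the interaction of fraction and line over 12 libraries. The limma fit was also run on simulated data with known changes, in which libraries spread by the same amount in all 4 tables. Measured replicates mostly differed more in MDA-MB-231 than in the sorted lines. The simulation therefore does not show how the fit performs on the MDA-MB-231 libraries. Whole reads recovered from the values (100% whole, within 0.02 reads in the MDA-MB-231 tables and within at most 0.2 in the TPM tables) put Hs578T libraries at 28189500 to 33715701 reads. HCC70 libraries had 24681218 to 33559417, sgCtrl and sg1 libraries 41424338 to 51018667, and EV and KIF20A OE libraries 15971297 to 22182293. For TPM some genes, and so the totals, may be recovered too low by a common divisor. Of 2471 simulated TPM genes with a mean of at least 20 reads, 98.1% were exact, and of all 2995 with a read, 98.2%. The recovered reads served edgeR 4.0.16 (quasi-likelihood) and DESeq2 1.42.0 as alternatives, beside a pseudocount of 0.1, a minimum mean of 10, no filter, median-of-ratios scaling, a replicate block and each library left out. Sums of PRC1 or ARL6IP1 with an overlapping gene were added after seeing the data. No 2 libraries of a group agreed within sampling noise.

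The 10 genes and the lists (spindle assembly, midzone and cytokinesis, G2/M, S phase, endoplasmic reticulum shaping, mesenchymal, epithelial, HEK293 and sorting markers) were chosen with earlier results of these data known. Beyond the 10 genes and KIF20A, genes were named by rule: the up to 3 called genes with the largest rise or fall in a list, and the 5 genes most like HMMR or FAM83D by Pearson's r among genes averaging 10 TPM or more. REEP4 and ALDH1A3 come under that rule. Gene models came from GENCODE 44 and promoters from RefSeq GRCh38.p14.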

Additional observations from a re-analysis of the deposited data

Results flagged for a closer look

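For 2 genes the fraction effect differed between the lines by the interaction test. The log2 fold change of PRC1 was larger by 0.30 in HCC70 (0.54) than in Hs578T (0.24), and that of KIF20A by 0.35 (0.80 against 0.45), with all 3 BCSC libraries above all 3 non-BCSC libraries for both genes in both lines. The adjusted p of 0.043 for PRC1 ranged from 0.028 to 0.11 over 17 alternatives, 5 of which called it. Line and batch cannot be told apart in either difference.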

How the results depend on the processing

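No member of the set changed direction between BCSCs and non-BCSCs, or after depletion, under any alternative run. In Hs578T the genes called numbered 953, and 1646 with edgeR; in HCC70 374, and 1167 with DESeq2, 715 with edgeR, 233 after the median of ratios, 178 without a filter and 128 with the replicate block. Leaving out 1 library gave 343 to 865 genes and 7 to 9 members in Hs578T, and 32 to 270 genes and 2 to 10 members in HCC70. The count of genes moved by over 1.5 times without Hs578T BCSC replicate 1 (390) or non-BCSC replicate 1 (486) or 2 (343), and without any HCC70 library but non-BCSC replicate 1. After depletion, DESeq2 called 11 genes, and leaving out 1 library 0 to 144 (sgCtrl replicate 3). In the overexpression experiment, members called lower rose from 1 to 4 with the median of ratios, edgeR and DESeq2. Leaving out 1 library gave 3 to 4 higher, always with PRC1 among them, and 1 to 2 lower. ARL6IP1 turned to 0.38 when summed with the overlapping gene, and without single libraries ran from -0.1141 to 0.0353, TPX2 from -0.18 to 0.18. For the difference between lines, no member was called after the median of ratios, where CKAP2 was at -0.0085, nor with the replicate block, where 302 genes were called in place of 830. Leaving out 1 library gave 291 to 1225 genes, 0 to 1 members, and -0.022 to 0.11 for CKAP2. The cause was not tested.

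Same-numbered libraries did not regularly deviate together. Across genes, r between them ran from -0.13 to 0.16 in Hs578T and from -0.24 to 0.32 in HCC70. It ran from -0.14 to 0.0040 in the depletion experiment and from -0.0040 to 0.080 in the overexpression experiment. The numbers were therefore not taken to pair the samples. Some libraries did deviate together, numbered alike (replicates 2 of HCC70, r = 0.32) or not (sgCtrl replicate 2 and KIF20A sg1 replicate 1, r = 0.35). No pairing other than by number was fitted. With the replicate block 7 members were called higher in Hs578T and 8 in HCC70. With 10 to 50 reads a library, PRC1 in the overexpression experiment is known only coarsely.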
